A study of Mus musculus with 20 samples.

Results

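The comparison described here sets grown mouse CIC-DUX4 sarcomas against cultured mesenchymal cells shortly after these received the fusion gene. CDS tumors (6 arrays, CDS 1 to 6) were individual tumors that grew under the skin of Balb/c nude mice after eMC carrying the fusion had been transplanted, and they received no treatment. The cultured cells (eMC CIC-DUX4, 4 arrays, numbered 5 to 8) were mouse embryonic mesenchymal cells grown in Iscove's modified DMEM with 15% FBS and transduced by spinofection with the retrovirus pMYs-CIC-DUX4-IRES-GFP, 48 hours earlier. Both groups carry the fusion. The arrays were chosen by their titles, which makes 10 of the 20 arrays of the series. The other 10 were 6 Ewing sarcoma (ES) tumors, whose genotype the labels do not give, and 4 arrays of eMC transduced with the empty vector pMYs-IRES-GFP. They serve below as a second pair of tumor and culture. Nude mice lack a functional thymus but keep other immune cells, and the labels name no clone or sort for the transduced eMC. Nothing in the labels ties the eMC arrays to independent cultures, and p-values then measure only the spread between these samples, which may be technical. Of 17097 genes with a probe set of 1 gene symbol, 11525 had enough signal to be tested.

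CIC is a repressor of the HMG-box family. It sits on the promoters of genes that receptor tyrosine kinase and MAPK signalling switches on, among them the PEA3 group of ETS factors Etv1, Etv4 and Etv5, and is released from them when the pathway is active. The human sarcoma fusion joins most of CIC to the activating tail of DUX4, a transcription factor of the early embryo, so that a repressor becomes an activator of the same genes. In patients these are aggressive round cell tumors of soft tissue, for which expression of ETV4 is a diagnostic marker.

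The arrays differed in ways that touch every value below. All had been brought to nearly the same trimmed mean, but the 75th percentile of the deposited log2 signal ranged from 4.84 to 8.93 in CDS tumors and from 8.53 to 8.95 in eMC CIC-DUX4, so values were quantile normalized. On that scale the median probe set lies at 3.38, and the density of signals has its lowest point at 6.73, here called the boundary. The 72.4% of probe sets below it are dim, and differences among them carry little information. The 4 cultures correlated at 0.9957 to 0.9976 with each other, the tumors at 0.8997 to 0.9812, and tumors with cultures at 0.7717 to 0.8435. The median SD over genes was 0.50 in tumors and 0.12 in cultures. For Actb, the signal of the 3′ probe set minus that of the 5′ one, which grows as RNA degrades (the 3′ excess), was 0.80 ± 0.36 log2 (SD, n = 6) in CDS tumors and 0.22 ± 0.02 (n = 4) in eMC CIC-DUX4, and an exact two-sided permutation test gave p = 0.019 (0.0381 adjusted over 4 measures). CDS 5 and CDS 6 had the highest excess, 1.16 and 1.28. The groups did not overlap in it (0.31 to 1.28 in tumors, 0.19 to 0.23 in cultures). A fit with this excess as a covariate therefore cannot fully tell it apart from tumor against culture. A call lost in that fit can also be a loss of precision.

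The tumor and the early culture differed over a large part of the genome. At a limma adjusted p under 0.05 and a difference of at least 1 log2 unit, 4542 genes (39.4% of those tested) were called. Of these, 2061 (17.9%) were higher in tumors and 2481 (21.5%) lower. The values of the groups did not overlap for 5815 genes (50.5%). A difference of at least 4 log2 units was reached by 272 genes that rose and 259 that fell. For 1140 of the genes called higher, every eMC CIC-DUX4 array lay below the boundary, and for 1113 of those called lower every CDS tumor did.

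The size of the count depends on how the arrays are brought together. With the values as deposited, where the median gene lies 0.93 lower in tumors (log2 difference -0.93 against -0.07 after quantile normalization), 642 genes were called higher and 1604 lower, so that 28.6% of calls were upward against 45.4%. With arrays shifted to the same median the counts were 432 and 658. No gene was called in opposite directions by any of these 3 scalings. For 132 of the called genes named below the calls were compared between settings. Of these, 112 were also called on the deposited values and 77 with the arrays shifted to the same median. Other called genes, such as those given only by name or by a difference without its SE, are not among the 132. The 12 genes with the highest and the 12 with the lowest differences were called under every alternative tried. Counts of gene lists in this comparison are followed by those under the other scalings where they differ by over 1.5 times. A count under another scaling need not hold the same genes. Each list count is to be read against the shares over all genes tested, 17.9% higher and 21.5% lower.

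**Figure D1:**
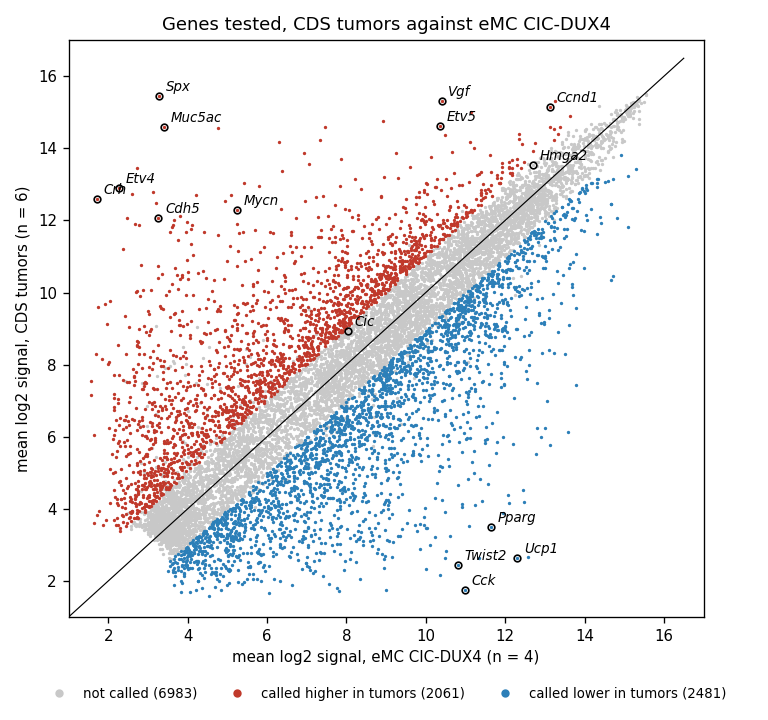
Mean quantile-normalized log2 signal of each of the 11525 genes tested in eMC CIC-DUX4 (horizontal, n = 4) and in CDS tumors (vertical, n = 6); the line marks equal signal and circles mark genes named in the text. Called genes are coloured, 2061 above the line and 2481 below it. Spx, Muc5ac and Crh lie in the upper left corner and Ucp1, Cck and Twist2 at the lower right.

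Among the 12 genes with the highest differences, the leading group were secreted proteins and factors that were dim in the culture and among the brightest signals in the tumors. Spx encodes spexin, a neuropeptide that acts on galanin receptors. Its log2 signal was 15.37, 15.62, 15.40, 15.35, 15.46 and 15.58 in CDS 1 to 6 and 3.19, 3.26, 3.26 and 3.43 in the 4 cultures. The groups are separated by almost the whole range of the array. The difference was 12.18 ± 0.13 (SE, limma adjusted p = 4.33e-14). Because all cultures lay below the boundary, the fold itself is known only as a bound: taking the boundary in place of the dim signals, Spx was at least 427-fold higher in tumors. Bounds below are computed in the same way, and the fitted differences printed with them rest on dim signals on 1 side. Each bound holds for the probe set used, the gene's brightest, and other probe sets of a gene can be dim.

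Muc5ac, a gel-forming mucin of stomach and airway, lay between 14.26 and 15.07 in the tumors and between 3.33 and 3.54 in the cultures, at least 234-fold higher (11.20 ± 0.18). It was 1 of 3 mucin and epithelial secretory genes with enough signal to be tested. The other called one was the trefoil peptide Tff1, at a difference of 1.03, a call lost in both other scalings and without CDS 5, CDS 6 or eMC CIC-DUX4 5, so the bright signal was that of 1 mucin and did not extend over the list. Crh, the corticotropin-releasing hormone, rose from 1.58 to 1.99 in cultures to 11.46, 12.58, 12.91, 13.22, 13.16 and 12.30 in CDS 1 to 6. It was at least 58.9-fold higher. CDS 1 was the lowest tumor and still stood far above every culture.

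Kpna7, an importin alpha of oocytes and cleavage embryos, was at least 106-fold higher (10.74 ± 0.25). Its values were 13.17 to 14.14 in tumors and 2.31 to 3.09 in cultures. Of a list of 13 genes that DUX4 or its mouse relative Dux switches on in cleavage embryos, 7 were on the array and Kpna7 alone had enough signal to be tested. Fgfbp3, a secreted carrier protein for fibroblast growth factors, was at least 53.9-fold higher, with 12.15 to 12.99 in tumors and 3.07 to 3.38 in cultures. Clca2, a cell-surface protein of the calcium-activated chloride channel regulator family, was at least 64.7-fold higher and Camk4, a calcium- and calmodulin-dependent kinase, at least 35.5-fold. The other probe sets for Camk4 had tumor means of 6.07, 4.55 and 2.83, all below the boundary, and differed by 3.41, 2.52 and 0.09. In all of these genes the 4 cultures lay below the boundary.

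Rgs5, Aplnr and Notch4, also among the highest 12, are genes of blood vessels, and Etv4 and Per2 are described with the CIC targets below. Rgs5, a regulator of G protein signalling in pericytes, lay at 14.39 to 14.73 in tumors and 4.69 to 4.85 in cultures (at least 231-fold). Aplnr, the apelin receptor of growing vessels, was at least 67.5-fold higher and Notch4, a Notch receptor of endothelium, at least 36.5-fold. Another Aplnr probe set had a tumor mean of 6.6, below the boundary, and differed by 3.43. The other Notch4 probe sets had tumor means of 2.72 and 3.65 and differed by 0.58 and 1.1. The markers of endothelial cells and pericytes are given further below. The samples are bulk RNA, so a change in the number of cells of a type and a change in RNA per cell cannot be told apart, here and in every group below.

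**Figure D2:**
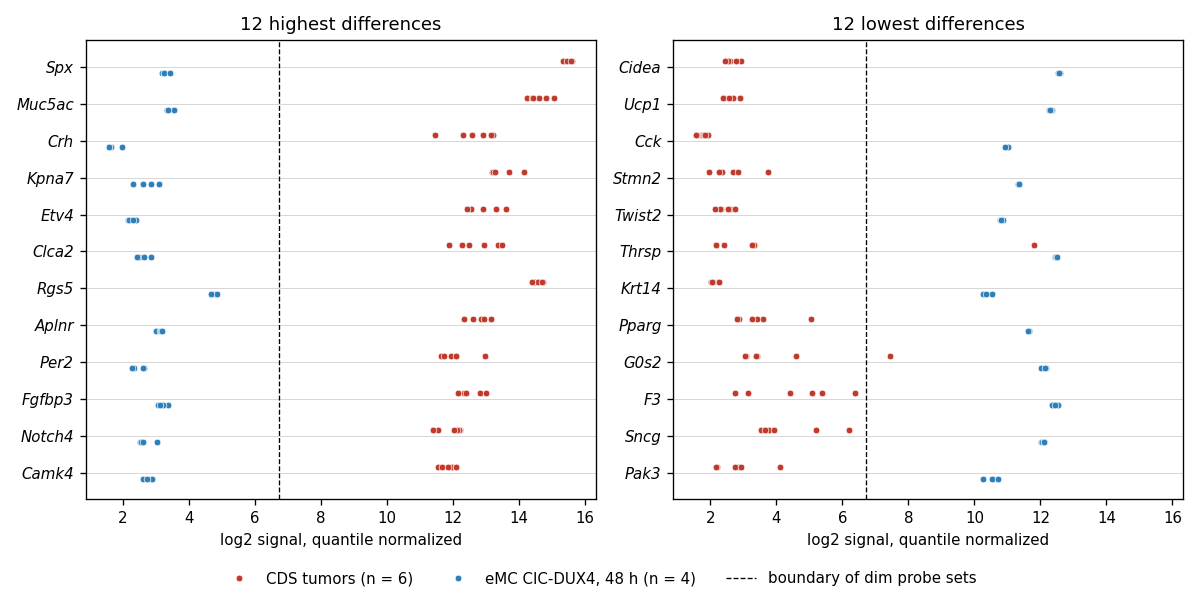
Quantile-normalized log2 signal on each array for the 12 genes with the highest and the 12 with the lowest difference; red points are the 6 CDS tumors, blue points the 4 eMC CIC-DUX4 arrays, and the dashed line is the boundary of dim probe sets at 6.73. The 24 genes were chosen among called genes whose groups do not overlap, so their separation is a condition of the choice. Over all genes tested the groups did not overlap for 50.5%. A single tumor, CDS 2, reaches 11.80 for Thrsp and 7.45 for G0s2.

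Most of the genes listed as direct targets of CIC were higher in the tumor than in the early culture. Of 19 listed targets tested, 15 were called higher and 1 lower (13 and 2 on the deposited values, 9 and 0 with arrays at the same median, 2 lower without CDS 6), and the list's median difference was 2.68 against -0.07 over all genes. The list was chosen with earlier results of these data known, so its direction is no independent evidence. What is measured here is whether the named targets were bright in the early culture and in the tumors. When a target became bright between these was not tested, nor was the share of cultured cells that carried the fusion.

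Etv4 was dim on all 4 cultures (2.16 to 2.40), as on those with the empty vector (1.92 to 2.43). In CDS 1 to 6 it stood at 12.54, 13.61, 12.90, 12.55, 13.30 and 12.42, at least 71.6-fold higher (10.62 ± 0.26, adjusted p = 4.49e-11). So the diagnostic gene of the tumor gave no signal above the boundary at 48 hours. Etv1 differed in that the cultures were just above the boundary, at 7.41 to 7.49, against 5.05 to 5.87 with the empty vector. In tumors it reached 14.30 to 14.81, a further 7.14 ± 0.12, and its other probe sets differed by 4.09 and 9.0 in the same direction. Etv5 was above the boundary with the empty vector as well, at 7.37 to 7.58. It stood at 10.07 to 10.55 in the CIC-DUX4 cultures and at 14.41 to 14.90 in tumors, a further 4.25 ± 0.12.

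Vgf, the precursor of neuroendocrine peptides, had been dim with the empty vector (3.07 to 3.67) and was bright at 48 hours, with 10.38, 10.02, 10.90 and 10.32. In CDS 1 to 6 it lay at 15.14 to 15.46 and so rose by a further 4.92 ± 0.14. Spx, Crh, Per2 and Etv4 form the contrasting set: all were at 3.43 or less on every culture. Per2, a clock gene, was 2.27 to 2.64 in cultures and 11.65, 12.10, 11.73, 11.95, 12.09 and 12.96 in CDS 1 to 6, at least 40.9-fold higher. Another Per2 probe set had a tumor mean of 5.57, below the boundary, and differed by 3.05.

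The MAPK phosphatases Dusp4 and Dusp6, which dampen the pathway that feeds into CIC, were higher in tumors by 4.92 ± 0.21 and 3.90 ± 0.14. Their cultures were at 8.08 to 8.36 and 10.43 to 10.52. The G1 cyclins Ccnd1 and Ccnd2 rose by 2.01 ± 0.06 and 2.05 ± 0.08 to 14.94 to 15.20 and 15.09 to 15.48. This is the top of the array's range, where differences are compressed. Their less bright probe sets differed by 3.2 and 3.19 for Ccnd1 and by 2.17 to 5.52 for Ccnd2. Egr1, an immediate-early transcription factor, was the only target called lower, at -2.74 ± 0.57. It ranged from 6.75 in CDS 6 to 10.12 in CDS 3 against 11.79 to 11.84 in cultures, and with the Actb 3′ excess as a covariate it was no longer called (-1.57 ± 0.74, adjusted p = 0.117).

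Hmga2, a chromatin protein of embryonic and tumor cells, was bright in both groups, 13.30 to 13.73 in tumors and 12.70 to 12.71 in cultures. The groups did not overlap, but at 0.84 ± 0.10 the difference was below 1 log2 unit. The probe set for Cic gave 8.14, 8.90, 8.79, 8.90, 8.61 and 10.20 in CDS 1 to 6 and 7.92 to 8.16 in cultures. These groups overlapped and the gene was not called (0.89 ± 0.34, and -0.31 on the deposited values). The array's annotation does not say whether that probe set lies within the part of Cic that the fusion carries, so it checks neither the fusion nor the host gene.

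Mycn, the N-myc transcription factor, stands apart from the rest. Its brightest probe set was at 5.60, 5.25, 5.04 and 5.07 in the 4 CIC-DUX4 cultures and at 11.91 to 12.83 in tumors, but at 13.62 to 13.84 in the empty-vector cultures. The tumors therefore lay close to the empty-vector cells, and the difference of 7.04 ± 0.22 was measured against a low signal in the CIC-DUX4 cultures. The other probe sets for the gene did not share that size: they differed by 2.80 and 0.12 log2 units, with tumor means of 5.65 and 3.32, both below the boundary.

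**Figure D3:**
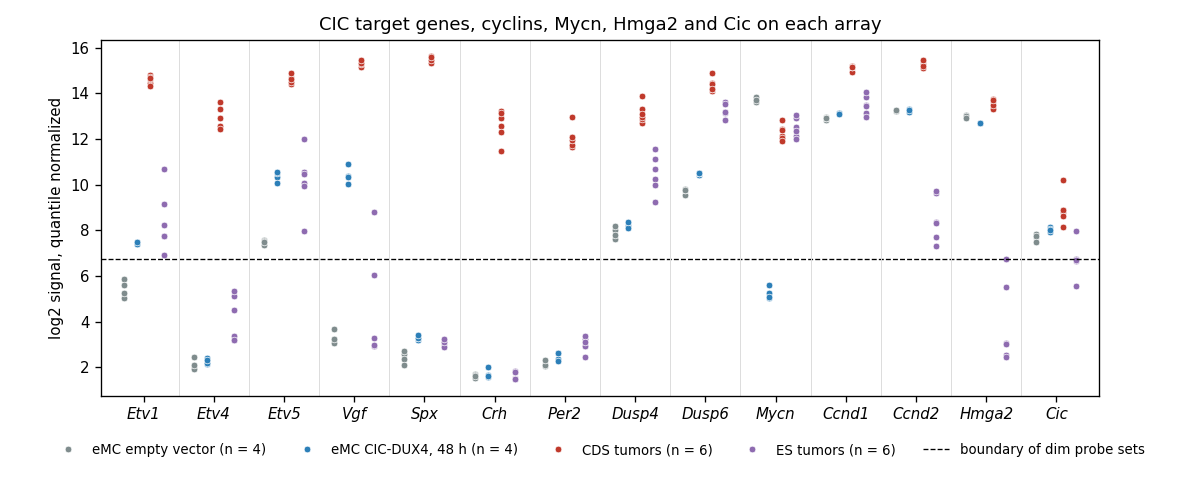
Quantile-normalized log2 signal of the CIC targets Etv1, Etv4, Etv5, Vgf, Per2, Dusp4 and Dusp6, and of Spx, Crh, Mycn, the cyclins Ccnd1 and Ccnd2, Hmga2 and Cic on each array of the 4 groups (grey, eMC empty; blue, eMC CIC-DUX4; red, CDS; purple, ES); the dashed line is the boundary at 6.73. Etv5 and Vgf are above the line in the blue points at 48 hours, Etv5 also in the grey ones, whereas Etv4, Spx, Crh and Per2 are at 3.43 or less there and bright in CDS tumors alone. Mycn is low in the blue points only.

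CIC binds the octamers TGAATGAA and TGAATGGA. They were searched on both strands of the RefSeq promoter windows (GRCm38.p6, 250 bases before to 50 after each start), which cover 9282 of the genes tested. At least 1 octamer was found for 179 of the 9282 genes (1.93%), for 70 of 1645 genes called higher (4.26%) and for 27 of 1954 called lower (1.38%). Over all 32851 windows of the table the share was 2.47%. Of the listed CIC targets with a window, 1 of 9 held one, and most listed targets, Etv4 among them, have none in so short a window or are not in the table. Fgfbp3 and Maff are shown because they are the genes of the highest 12 and of the target list whose windows hold the octamer, in capitals. Stretches of 80 bases are given 5′ to 3′ on the strand of the gene, for Fgfbp3 from chr19:36919616-36919695 (minus strand) and for Maff from chr15:79347482-79347561 (plus strand).
Fgfbp3: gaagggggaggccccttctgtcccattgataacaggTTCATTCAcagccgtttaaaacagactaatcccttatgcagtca
Maff: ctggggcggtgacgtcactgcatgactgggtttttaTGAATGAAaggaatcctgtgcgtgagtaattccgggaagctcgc
In Fgfbp3 the octamer lies on the other strand, and begins at position -60 from the start. In Maff, a small Maf transcription factor, it begins at -2. Maff was higher in tumors by 2.46 ± 0.48 (8.99 to 11.45 against 7.23 to 7.80), and was not called on the deposited values (0.98 ± 0.69). The letters are a description of the window and show no binding.

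In the other direction, the largest differences were those of Cidea and Ucp1, genes of brown fat. Cidea, Ucp1 and Pparg were bright in the cultures and below the boundary in every tumor. Cidea, a lipid droplet protein of brown fat, was at 12.57, 12.53, 12.59 and 12.57 in the cultures and at 2.60, 2.53, 2.78, 2.93, 2.44 and 2.79 in CDS 1 to 6, a difference of -9.89 ± 0.21 (adjusted p = 1.92e-11). It was at least 57.3-fold higher in the culture. Ucp1, the uncoupling protein that makes heat in brown fat, was at 12.25 to 12.36 and 2.38 to 2.90 (at least 47.9-fold higher in the culture). Pparg, the nuclear receptor that directs fat cell formation, was at least 30.3-fold higher in the culture, and its tumor values ran from 2.80 to 3.59, with CDS 2 at 5.05.

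Thrsp, which supports fatty acid synthesis, and G0s2, an inhibitor of triglyceride breakdown, fell by 8.27 ± 1.61 and 7.94 ± 0.75. For Thrsp, CDS 2 stood at 11.80 and the other tumors at 2.18 to 3.33. Adipoq, the fat hormone adiponectin, varied among the tumors as well, from 4.00 in CDS 5 to 13.12 in CDS 2, against 13.48 to 13.56 in cultures. Of 9 fat cell markers tested, 8 were called lower and none higher (7 lower as deposited, 4 with arrays at the same median; median difference -4.83). The summed linear signal of the 10 on the array was 100200 to 106000 in the CIC-DUX4 cultures, 90230 to 93000 with the empty vector and 5338 to 56320 in tumors, with CDS 2 the highest and CDS 1 next at 22970. Fabp4, a fatty acid carrier, and Lpl, lipoprotein lipase, stayed above the boundary in all 6 tumors, with means of 13.44 and 11.81. The part of host fat in the tumor values was not tested. With the Actb 3′ excess as a covariate Adipoq was not called (-1.91 ± 1.96).

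The remaining genes of the lowest 12 belong to other lineages. Cck, the gut and brain peptide cholecystokinin, was at 10.94 to 11.02 in cultures and 1.58 to 1.93 in tumors (at least 19.3-fold higher in the culture), while the related secretory list moved both ways: of 9 tested, Spx, Crh, Vgf and Gal rose and Cck, Cpe and Tac1 fell. Stmn2, a neuronal microtubule regulator, Sncg, gamma-synuclein, and Pak3, a neuronal kinase, fell by 8.71 ± 0.33, 7.69 ± 0.50 and 7.68 ± 0.36. Twist2, a mesenchymal transcription factor, was at 10.77 to 10.86 in cultures and 2.15 to 2.75 in tumors. F3, tissue factor, fell by 7.91 ± 0.62 with tumor values from 2.76 in CDS 5 to 6.39 in CDS 2.

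Krt14, a keratin of basal epidermis, was at 10.26 to 10.54 in cultures and at 2.03 to 2.27 in tumors. Of 10 keratinocyte markers tested, 8 were called lower and none higher (6 lower as deposited). Dsp, the desmosome protein desmoplakin, fell by 6.28 ± 0.19, Cdh1, E-cadherin, by 5.73 ± 0.19 and Krt5 by 4.57 ± 0.29. The summed signal of the 14 markers on the array was 2551 to 2813 in the CIC-DUX4 cultures, 2001 to 2677 with the empty vector and 166.1 to 405.7 in tumors. Krt5, Krt14, Dsp, Perp and Cdh1 were above the boundary on all 4 cultures and on no tumor. Epcam, an epithelial adhesion molecule, was near the boundary in both groups, with means of 6.78 in tumors and 6.97 in cultures. Of 7 Schwann cell markers tested, 5 were called lower (3 as deposited, 1 with a filter at the 75th percentile). Of these only Pmp22, a myelin protein, was bright, and it fell by 2.26 ± 0.40. Mbp, S100b and Foxd3 were dim on every array, Egr2 had means of 6.83 in tumors and 5.80 in cultures, and Sox10 lay below the boundary on every array, at 5.84 to 6.68 in cultures and 3.08 to 4.22 in tumors.

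Sterol and amino acid metabolism were the metabolic lists with the highest shares of genes called lower. Of 15 genes of cholesterol synthesis and uptake tested, 13 were called lower and 1 higher (11 and 0 as deposited, 2 and 0 with arrays at the same median), with a median of -3.25. The list covers the pathway from the first committed steps to the last: Hmgcs1, which makes its precursor, fell by 3.68 ± 0.18 and was below the boundary in both groups. Lss, which closes the sterol rings, fell by 3.93 ± 0.56, Msmo1, a demethylating oxidase, by 3.75 ± 0.39 and Sc5d, a late desaturase, by 5.60 ± 0.50. Msmo1 was at 12.65 to 12.67 in cultures and at 10.18, 8.53, 9.11, 9.41, 8.59 and 7.62 in CDS 1 to 6. Sc5d was at 11.50 to 11.60 and 4.18 to 7.09. In both genes CDS 6 was the lowest tumor and no tumor reached a culture. Stard4, a sterol carrier, was the gene called higher, by 1.02 ± 0.22, and it was called in neither other scaling, nor without CDS 2, CDS 4, CDS 6 or eMC CIC-DUX4 8.

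ATF4 is the transcription factor that switches on amino acid synthesis and transport when cells lack amino acids or are under stress. Of 17 of its targets tested, 14 were called lower and 1 higher (11 and 0 as deposited, 3 and 0 with arrays at the same median), with a median of -2.54. Slc7a3, a carrier of cationic amino acids, was at 7.67 to 8.14 in cultures and 2.78 to 3.29 in tumors, a fall of 4.80 ± 0.20. Atf3, a stress transcription factor, fell by 4.30 ± 0.63, with tumor values from 3.85 in CDS 2 to 7.55 in CDS 3. Trib3, a pseudokinase, was at 9.63 to 9.74 in cultures and 4.28 to 6.88 in tumors, and Ddit3, the stress factor CHOP, at 11.85 to 11.94 and 7.50 to 9.58. Vldlr, a lipoprotein receptor, was the gene called higher (1.51 ± 0.50). Its values overlapped, CDS 1 being below the cultures' lowest, and the call was lost under several alternatives, with an adjusted p of 0.0523 when eMC CIC-DUX4 8 was left out.

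A short form of the site that ATF4 shares with its partners, TGATGNAA, was searched in the same windows on both strands, a motif chosen after the data were seen. It was found for 258 of the 9282 genes tested (2.78%), 48 of 1645 called higher (2.92%), 60 of 1954 called lower (3.07%) and for 7 of 14 listed ATF4 targets with a window. Over all 32851 windows of the table the share was 3.97%. Atf3, Trib3 and Vldlr are shown because they carry it while 2 of them fell and the other rose. The stretches are from chr1:191183400-191183479 (minus strand), chr2:152344011-152344090 (minus) and chr19:27216784-27216863 (plus), with the motif in capitals.
Atf3: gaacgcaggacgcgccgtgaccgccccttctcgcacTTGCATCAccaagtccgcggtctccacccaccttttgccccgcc
Trib3: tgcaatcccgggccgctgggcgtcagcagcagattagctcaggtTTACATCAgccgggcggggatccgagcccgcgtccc
Vldlr: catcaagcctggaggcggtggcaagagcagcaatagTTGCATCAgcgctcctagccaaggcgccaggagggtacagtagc
All 3 carry the motif on the strand opposite to the gene, and the 8 letters of Atf3 and Vldlr are the same.

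Of 15 genes that respond to low oxygen, 10 were called higher and 1 lower (7 and 1 as deposited, 3 and 1 with arrays at the same median), with a median of 1.40. Car9, the carbonic anhydrase that marks hypoxic tumor tissue, was at 10.84, 12.53, 11.01, 11.30, 12.13 and 12.25 in CDS 1 to 6 and 3.29 to 3.83 in cultures (at least 31.0-fold higher, 8.13 ± 0.36). Egln3, a prolyl hydroxylase that HIF induces, rose by 5.07 ± 0.30 and Ankrd37 by 5.04 ± 0.58. Vegfa, the vessel growth factor of the list, was 2.89 higher. Adm, adrenomedullin, went the opposite way: it was at 13.03 to 13.06 in cultures and from 4.61 in CDS 3 to 9.69 in CDS 2, a fall of 6.06 ± 0.73.

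The core of the hypoxia response element, TACGTG, again chosen after the data were seen, was found in the windows of 403 of 9282 genes tested (4.34%), 78 of 1645 called higher (4.74%), 71 of 1954 called lower (3.63%) and 4 of 14 hypoxia genes with a window. Over all windows the share was 3.23%. Car9 and Ankrd37 are shown as the named genes that hold it, from chr4:43506972-43507051 (plus strand) and chr8:46000021-46000100 (minus strand).
Car9: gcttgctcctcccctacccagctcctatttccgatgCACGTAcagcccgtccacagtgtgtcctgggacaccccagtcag
Ankrd37: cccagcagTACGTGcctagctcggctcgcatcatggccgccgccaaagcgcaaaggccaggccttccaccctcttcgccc
The motif of Car9 begins at position -18, and Ankrd37 holds 2 copies in its window, of which 1 is shown.

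Of 15 glycolytic genes tested, 6 were called higher and 1 lower (5 and 0 as deposited, 1 and 0 with arrays at the same median, 3 higher without CDS 2 and eMC CIC-DUX4 5 and 6). The share called was 46.7%, against 39.4% over all genes tested. Aldoc, the brain form of aldolase, stood out: it was at 13.70 to 14.39 in tumors and 6.21 to 6.41 in cultures, all below the boundary, and so at least 173-fold higher. Another Aldoc probe set had a tumor mean of 6.36, below the boundary, and differed by 4.25. Hk1, a hexokinase, rose by 1.99 ± 0.20, and Pfkp, the platelet form of phosphofructokinase, was the gene called lower (-1.58). Pfkm, the muscle form, was called higher (2.54 ± 0.81) and was at 12.75, 11.55 and 10.85 in CDS 3, 4 and 5 against 8.06 to 8.90 in the other tumors. CDS 3, 4 and 5 are the tumors with skeletal muscle signal, described below. Without them its difference was 0.95 ± 0.25, below the call.

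Of 19 respiratory chain genes tested, 6 were called lower and none higher (1 lower in each of the other scalings). The share called was 31.6%, against 39.4% over all genes tested. The list's median was -0.67, but 0.65 with arrays at the same median. The member with the largest fall was Cox7a1, a cytochrome oxidase subunit of heart, muscle and brown fat, at 12.84 to 12.98 in cultures and at 8.97 and 8.69 in CDS 3 and 4 against 4.11 to 5.34 in the other tumors.

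Among the genes that pattern limb and body mesenchyme, more fell than rose. Of 18 mesenchymal and limb transcription factors tested, 9 were called lower and 4 higher (9 and 2 as deposited, 3 and 2 with arrays at the same median). Beside Twist2, Osr1, a factor of intermediate mesoderm, was at 10.84 to 10.96 in cultures and 3.22 to 4.71 in tumors, and Tbx18, a T-box factor, fell by 5.20 ± 0.58, with CDS 1 the highest tumor at 7.59. Meox1, a homeobox factor of somites, went up instead, from 6.46 to 6.71 in cultures to 10.33 to 13.00 in tumors (at least 29.4-fold). Of 22 Hox genes tested, which record position along the body axis, 10 were called lower and 1 higher (6 and 0 with arrays at the same median). Hoxc8 fell by 3.17 ± 0.56. Hoxa10 was at 10.48 to 10.67 in cultures and 7.50 to 8.01 in tumors. Hoxa7, the gene called higher by 1.54 ± 0.27, lay below the boundary in both groups and was not called in the other scalings.

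Growth factors and receptor tyrosine kinases changed in both directions. Of 30 tested, 17 were called lower and 8 higher (17 and 2 as deposited, 10 and 2 with arrays at the same median). The largest differences were falls: Fgf7, the keratinocyte growth factor made by mesenchyme, was at 10.08 to 10.31 in cultures and 2.66 to 3.85 in tumors (at least 11.4-fold higher in the culture). Met, the receptor of hepatocyte growth factor, fell by 6.18 ± 0.41 and Pdgfra, a mesenchymal PDGF receptor, by 5.91 ± 0.33, from 9.07 to 9.72 in cultures to 2.76 to 4.05 in tumors. Ntrk2, the receptor of brain-derived neurotrophic factor, fell by 4.49 ± 0.35. The 8 that rose were Pdgfb (3.84), Kit (3.27), Pdgfc (2.90), Igf1r (2.47), Alk (2.42), Ret (2.37), Egf (1.88) and Bdnf (1.62), as log2 differences. These 8 were named after their values were seen.

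In the BMP pathway 6 of 15 genes were called lower and 3 higher (4 and 3 as deposited, where 1 of the 3 upward calls was the same gene, 2 and 0 with arrays at the same median). The share called in the BMP list was 60%, against 39.4% over all genes tested. Gdf10, a TGF-beta family ligand, was at 13.55 to 13.62 in cultures and 5.49 to 7.11 in tumors, and Grem1, a BMP antagonist, fell by 5.34 ± 0.42. The ligands Bmp5 and Bmp7 rose by 4.2 ± 0.46 and 3.55 ± 0.34, from signals below the boundary on every culture, Bmp7 only after quantile normalization. Of 11 Wnt targets and antagonists, 6 were called lower and 2 higher (5 and 0 as deposited, none higher with arrays at the same median). Dkk2, a Wnt regulator that CIC-DUX4 cultures expressed at 9.91 to 10.09 and empty-vector cultures at 5.89 to 6.81, was at 1.79 to 2.95 in tumors, at least 9.73-fold lower than in the CIC-DUX4 culture. Etv5 and Vgf, whose CIC-DUX4 cultures also lay above the empty-vector ones, rose further in tumors instead. Nkd1, a feedback inhibitor, fell by 3.55 ± 0.21, and Nkd2 and Dkk3 rose by 3.19 ± 0.27 and 2.45 ± 0.22, neither being called as deposited.

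Of 10 imprinted growth genes tested, 4 were called lower and 1 higher (3 and 1 as deposited, none with arrays at the same median). Ndn, the growth suppressor necdin, fell by 4.21 ± 0.72, with tumor values from 6.63 in CDS 6 to 11.39 in CDS 1. Plagl1, a zinc finger factor, and Igf2, the embryonic insulin-like growth factor, fell by 2.48 ± 0.15 and 2.20 ± 0.17. Their brightest probe sets remained among the bright signals at 11.63 to 12.49 and 11.78 to 12.74. Another probe set of each had a tumor mean below the boundary, 2.83 for Plagl1 and 3.34 for Igf2, and differed by -4.47 and -4.21. Cdkn1c, the cyclin-dependent kinase inhibitor p57, rose by 1.30 ± 0.12 to 14.30 to 14.87.

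Of 24 genes of fibrillar collagens and matrix assembly tested, 8 were called lower and none higher (3 lower and 2 higher as deposited, 1 lower with arrays at the same median, 2 lower with the Actb 3′ excess as a covariate, 5 lower without CDS 6). The share called was 33.3% here and 35.7% in the basement membrane list below, against 39.4% over all genes tested. Col1a1 and Col3a1, the main interstitial collagens, differed by -0.01 and -0.02. Dcn and Lum, small proteoglycans that bind collagen, fell by 2.77 ± 0.68 and 2.71 ± 0.47. In CDS 1 to 6 Dcn was at 12.27, 13.20, 13.00, 12.95, 11.98 and 8.93, so CDS 6 was lowest by a wide margin, and the same tumor was the lowest for Lum at 8.94. With the Actb covariate the difference of Dcn was -0.74 ± 0.66. In basement membranes 4 of 14 genes were called higher and 1 lower (4 and 0 as deposited, 1 and 0 with arrays at the same median, 2 lower without CDS 2 or CDS 4), with Hspg2, perlecan, up by 2.13 ± 0.32 and Col4a5, a type IV collagen chain, up by 1.94 ± 0.31.

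Among 18 cartilage genes, 4 rose and 4 fell (3 and 4 as deposited, 1 and 4 with arrays at the same median). Prg4, the joint lubricant lubricin, was at 11.66, 14.01, 12.93, 12.58, 12.89 and 13.62 in CDS 1 to 6 and 7.81 to 7.89 in cultures, a rise of 5.11 ± 0.36. Comp, cartilage oligomeric matrix protein, rose by 3.65 ± 0.46. Hapln1, a link protein of cartilage aggregates, fell by 5.42 ± 0.38, whereas Matn1, a matrilin, was below the boundary on all arrays. The share of cartilage genes called, 44.4%, was near the 39.4% over all genes tested, so the split is a description.

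Of 19 matrix proteases and inhibitors, 9 were called lower and 3 higher (6 and 3 as deposited, 1 and 0 with arrays at the same median, 5 lower with the Actb covariate). Mmp3, stromelysin, split the tumors: it was at 9.43, 8.30 and 8.08 in CDS 2, 3 and 4 and at 2.78 to 3.86 in the others, against 11.00 to 11.19 in cultures. Adamts5, a protease of aggrecan, fell by 4.60 ± 0.73 and Mmp12, the macrophage elastase, by 4.09 ± 0.35. Mmp9, a gelatinase, rose by 4.26 ± 0.39, from 6.74 to 7.53 in cultures to 10.52 to 12.80 in tumors.

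Of 18 genes of the interferon response tested, 12 were called lower and 1 higher (10 and 0 as deposited, none with arrays at the same median, 2 higher without CDS 3 or CDS 6). The median was -1.53. Ifit2, an antiviral RNA-binding protein, was at 9.77 to 9.96 in cultures and from 3.74 in CDS 6 to 7.97 in CDS 3. Gbp3, a GTPase, fell by 3.15 ± 0.40, Ifih1, the RNA sensor MDA5, by 3.06 ± 0.27 and Usp18, which removes ISG15, by 2.99 ± 0.48. Rsad2, viperin, was the gene called higher (1.39 ± 0.27), but its difference was -0.55 ± 0.86 on the deposited values.

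Of 18 acute-phase proteins and chemokines, 12 were called lower and 3 higher (12 and 2 as deposited, 2 lower with arrays at the same median). Ccl7, which draws monocytes, was at 11.46 to 11.51 in cultures and at 8.55, 5.33, 6.73, 6.54, 4.85 and 3.53 in CDS 1 to 6. Saa3, serum amyloid A3, fell by 5.33 ± 0.87. Ccl8 and Cxcl14 rose instead: Ccl8, another monocyte chemokine, was at 7.04 to 7.08 in cultures and 11.06 to 14.59 in tumors, with CDS 6 the lowest, and Cxcl14 rose by 5.45 ± 0.66. Both empty-vector and CIC-DUX4 cultures had Ccl7 and Saa3 as bright signals, at 12.86 to 12.96 and 13.49 to 13.60 with the empty vector.

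Genes of antigen presentation divided by class. Of 12 tested, 5 were called higher and 1 lower (3 and 0 as deposited, 2 and 0 with arrays at the same median). H2-Aa and H2-Eb1, chains of class II molecules that macrophages, dendritic cells and B cells carry, were at least 24.6-fold and 12.5-fold higher in tumors. H2-Aa was at 9.96 to 12.04 in tumors and 3.98 to 4.33 in cultures. Cd74, the invariant chain, rose by 3.46 ± 0.43 (not called as deposited). The class I genes H2-K1 and H2-D1 were not called, at differences of -0.36 and -0.21, and Psmb10, an immunoproteasome subunit, was the gene called lower (-1.49 ± 0.28, not called in the other scalings).

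Macrophage markers changed in both directions alongside class II. Of 17 tested, 9 were called higher and 2 lower (5 and 1 as deposited, none lower with arrays at the same median). C1qa, C1qb and C1qc, the chains of complement C1q made by tissue macrophages, rose by 8.34 ± 0.48, 6.92 ± 0.58 and 5.80 ± 0.41, and Aif1 rose by 4.90 ± 0.55. C1qa was at 12.51, 12.84, 12.64, 12.06, 11.99 and 9.98 in CDS 1 to 6 and at 3.29 to 3.93 in cultures, but at 6.75 to 7.86 with the empty vector. Cd14, a receptor for bacterial endotoxin, and Cd68, a lysosomal protein, were the markers called lower. Cd14 was at 9.81 to 9.94 in cultures and 5.38 to 6.79 in tumors. Cd68 was not called as deposited or with the Actb covariate. The 18 markers on the array summed to 40510 to 40910 in cultures and 16400 to 66890 in tumors, with CDS 6 the lowest, and 10 were above the boundary on each culture against 12 to 17 on each tumor. So the cultures were not free of macrophage signal, and the share of the marker changes that host cells account for was not tested.

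All 15 endothelial markers tested were called higher and none lower (7 as deposited, 9 with arrays at the same median), with a median of 4.06. Cdh5, VE-cadherin, was at 11.50, 12.47, 11.93, 12.33, 11.81 and 12.44 in CDS 1 to 6 and 2.95 to 3.46 in cultures (at least 41.0-fold). Another Cdh5 probe set was dim in both groups, with means of 3.01 in tumors and 2.5 in cultures. The bound was 16.1-fold for Sox18, a transcription factor of endothelium, 13.2-fold for Esam, a junction protein, and 9.22-fold for Emcn, a sialomucin. Of the 17 markers on the array, 11 to 12 were above the boundary in tumors and 0 to 2 in cultures, and the summed signal was 13120 to 17430 against 444.8 to 525.7. Tie1, Vwf, Erg and Robo4 were below the boundary on every array of both groups. Among pericyte markers, Rgs5, Mcam (3.05 ± 0.23, not called as deposited) and Ndufa4l2 (1.30) rose among 5 tested (1 in each of the other scalings). Ndufa4l2 was below the boundary on every array. The others tested, Notch3 and Kcnj8, were not called, with means of 9.75 and 7.53 in tumors and 9.45 and 7.63 in cultures.

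Hba-a1, a hemoglobin chain, was at 12.14 to 15.25 in tumors and 6.65 to 7.22 in cultures. The other erythrocyte markers on the array, Alas2, Slc4a1, Epb42 and Car1, were below the boundary on every array. The neutrophil proteins S100a8 and S100a9 rose by 3.66 ± 0.73 and 3.81 ± 0.75 with tumor values from 4.74 to 9.29 and 4.01 to 8.70, and neither was called as deposited. Of 14 lymphocyte markers on the array, at most 1 was above the boundary on any array, and their summed signal was 79.93 to 762.2 in tumors and 158.3 to 223.7 in cultures. The T cell genes Cd3e, Cd4 and Cd8a were below the boundary in every tumor.

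Skeletal muscle divided the tumors. The summed signal of 18 muscle markers was 158700 to 394100 in CDS 3, 4 and 5 and 693.2 to 2923 in CDS 1, 2 and 6, with the cultures between at 9921 to 10770. Myh4, the fast myosin heavy chain of mature fibres, was at 15.36, 14.91 and 13.93 in the former and 2.41, 5.77 and 5.25 in the latter, against 1.58 to 1.90 in cultures. Myog, myogenin, which marks muscle cells as they form, was at 11.47 to 11.54 in cultures, 8.47 to 9.57 in CDS 3, 4 and 5 and 2.30 to 3.16 in CDS 1, 2 and 6. With all tumors, 1 of 17 markers was called higher and 2 lower (3 and 1 with arrays at the same median, 2 and 0 with the Actb covariate). The share called was 17.6%, against 39.4% over all genes tested. The counts higher and lower rest on the scaling and on which arrays enter. Without CDS 3, 4 and 5, 11 were called lower, an alternative chosen after the data were seen. With array weights 10 were called higher, without CDS 1 there were 4, and without CDS 2 or CDS 6 there were 3. The lower count was 1 without CDS 1 or any single culture. Whether the muscle signal is host tissue taken with the tumor was not tested.

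**Figure D4:**
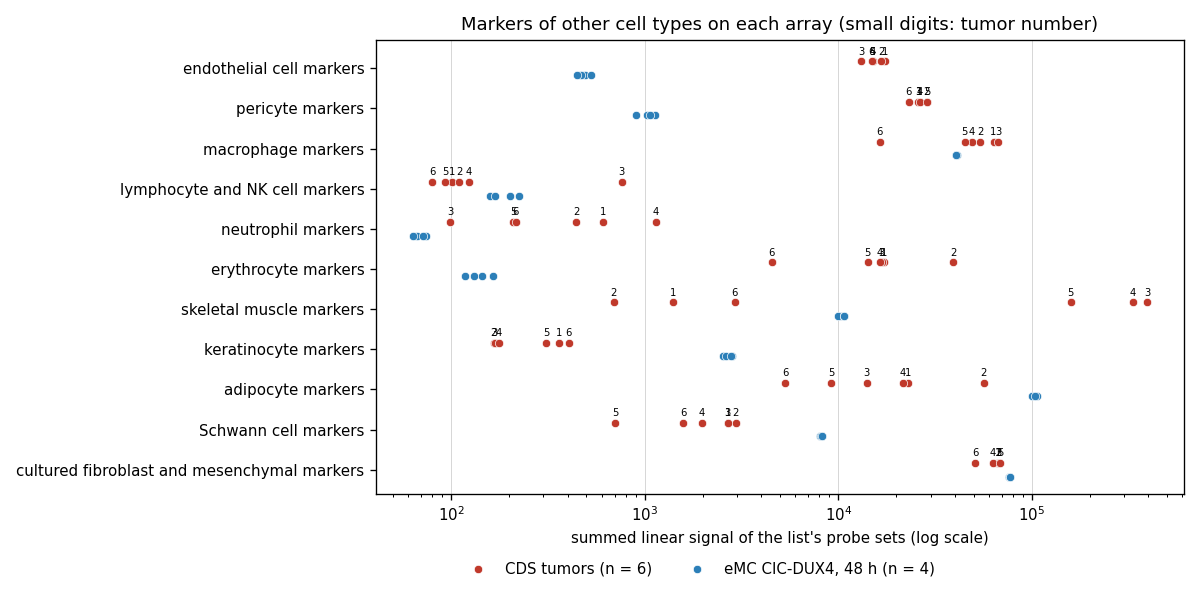
Summed linear signal (log scale) of each list of cell type markers on each array; red points are CDS tumors with their number above, blue points eMC CIC-DUX4. Endothelial markers lie at 13120 to 17430 in tumors and 444.8 to 525.7 in cultures, adipocyte and keratinocyte markers are higher in cultures, and skeletal muscle markers separate CDS 3, 4 and 5 from the other tumors.

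Cell division genes were called about as often as all genes, 38.7% against 39.4%. Of 31 tested, 6 were called higher (17.9% over all genes) and 6 lower (21.5%). These were 2 and 1 as deposited, and none with arrays at the same median. Ccne2, cyclin E2 of the G1 to S transition, rose by 3.84 ± 0.20, from 7.58 to 7.85 in cultures to 11.01 to 11.95 in tumors. Mcm5, a subunit of the replication helicase, rose by 1.81 ± 0.35 and Ccnb2, a mitotic cyclin, fell by 1.69 ± 0.27, neither being called as deposited. Kif20a, a motor of cytokinesis, fell by 3.14 ± 0.35. The 6 genes that rose were Ccne2, Cdc6, Mcm2, Mcm3, Mcm5 and Tyms, which act in G1 or S phase. The 6 that fell were Aurka, Bub1, Ccnb2, Cdc20, Kif20a and Plk1, which act in mitosis. These names are a description, as the share called was near that over all genes. Only 1 of the 6 upward and 1 of the 6 downward calls was also made on the deposited values. Mki67, the common proliferation marker, was not called (0.79).

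Of 15 p53 targets, 7 were called lower and 1 higher (4 and 0 as deposited, 1 and 0 with arrays at the same median, 4 lower with the Actb covariate). Fas, the death receptor, fell by 4.25 ± 0.52 and Gadd45a, a growth arrest gene, by 4.50 ± 1.17, with tumor values from 3.32 in CDS 6 to 10.17 in CDS 3. Pmaip1, the pro-apoptotic protein NOXA, rose by 3.82 ± 0.41 (not called as deposited). Of 19 immediate-early genes of the MAPK pathway, 6 rose and 3 fell (4 and 2 as deposited, 2 and 0 with arrays at the same median, 5 lower without CDS 2 or eMC CIC-DUX4 7). The share called of these immediate-early genes was 47.4%, against 39.4% over all genes tested. Fos rose by 3.10 ± 0.18, from 9.34 to 9.68 to 12.37 to 13.26, and Nr4a1, an orphan nuclear receptor, by 3.23 ± 0.27 (not called as deposited), while Egr1 fell as given above.

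Of 9 neural genes tested, 6 were called lower and 2 higher (1 higher in each of the other scalings and without eMC CIC-DUX4 5 or 6). Sox2, a factor of neural and other stem cells, was at 7.72 to 7.92 in cultures and 1.86 to 2.68 in tumors apart from CDS 1 at 5.50. Ncam1, a neural cell adhesion molecule, rose by 3.25 ± 0.29, from 7.78 to 8.08 in cultures to 10.58 to 12.23 in tumors. The remaining lists had calls in both directions. The share called was 41.7% of smooth muscle and myofibroblast genes and 25% of chaperones, against 39.4% over all genes tested. Of 12 smooth muscle and myofibroblast genes 1 was higher and 4 lower (2 and 0 as deposited, none with arrays at the same median). Of 16 chaperones 1 was higher and 3 lower (2 and 1 as deposited, none with arrays at the same median). Of 4 bone genes 2 were higher and 1 lower, with 1 higher in each of the other scalings and without CDS 1 or eMC CIC-DUX4 6. Of 11 cultured fibroblast markers 1 was higher and 5 lower (2 higher as deposited, none with arrays at the same median). The 5 became 3 in each of the other scalings, with the Actb covariate and without eMC CIC-DUX4 5, 6 or 8. Of 3 lymphocyte markers tested 1 was higher and 1 lower. The higher one was not called as deposited or without eMC CIC-DUX4 5 or 8, and the lower one not with arrays at the same median.

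**Figure D5:**
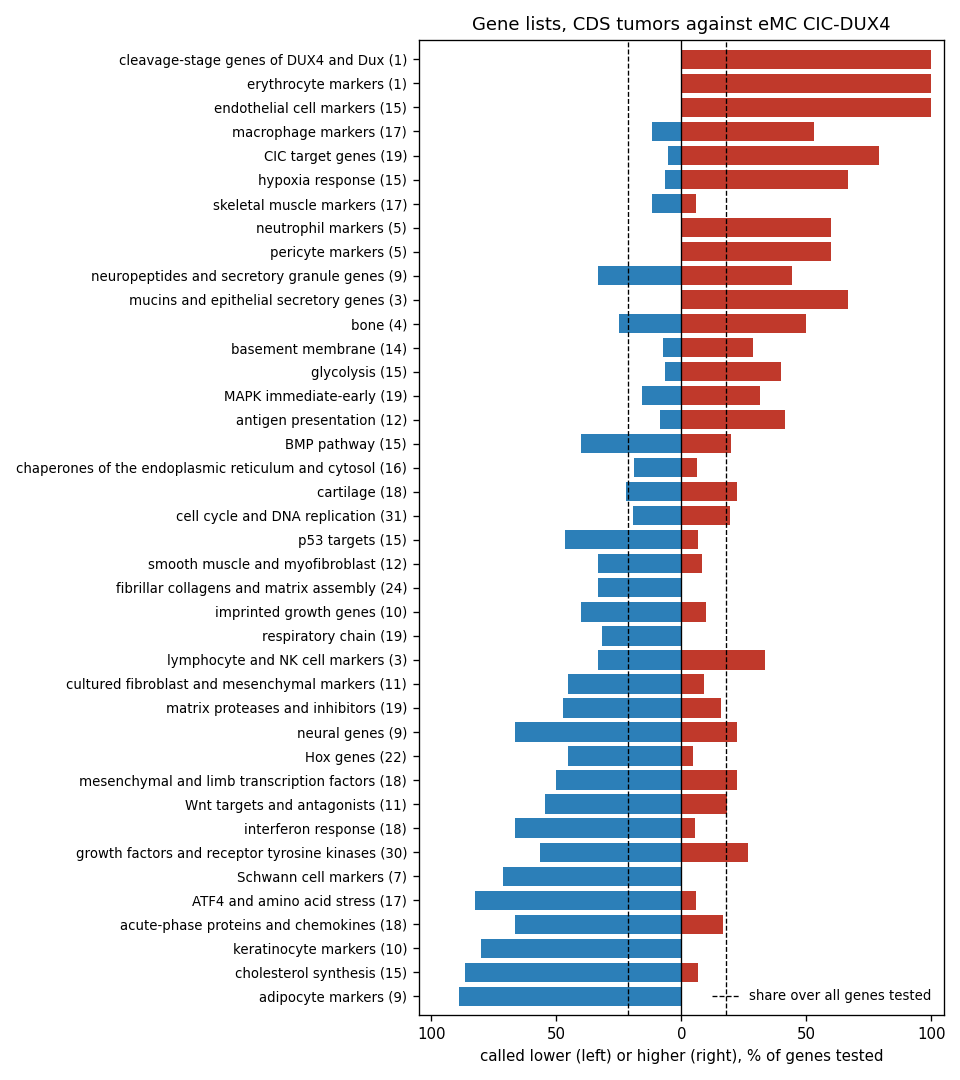
Share of the tested genes of each list called higher (red, right) or lower (blue, left) in CDS tumors, ordered by the list's median difference after quantile normalization; the number tested is in brackets and the dashed lines mark the shares over all genes tested, 17.9% and 21.5%. Endothelial markers (15 of 15 higher), macrophage markers (9 of 17) and CIC targets (15 of 19) have the highest medians among lists of more than 1 gene tested, and adipocyte markers (8 of 9 lower) and cholesterol synthesis (13 of 15) at the bottom; several lists in the middle change the sign of their median with the scaling.

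A tumor and a culture were also compared without any shared array, as ES tumors against eMC with the empty vector. The contrasts are unlike in design: CDS tumors and their culture both carry CIC-DUX4, whereas the empty-vector culture carries no fusion gene. In the ES contrast what drives the tumor and the growth as a tumor therefore cannot be told apart. There, 1933 genes were called higher (16.8% of the same 11525) and 2309 lower (20%). This count depends on the scaling even more: it was 3632 and 1338 on the deposited values and 3887 and 854 with arrays at the same median. Of the 2061 genes higher in CDS tumors, 802 (38.9%) were also higher in that contrast, which is 41.5% of its own 1933. Of the 2481 lower ones, 1139 (45.9%) were also lower, or 49.3% of 2309. Opposite calls were made for 181 of the genes higher in CDS tumors (8.78%) and 180 of the lower (7.26%).

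The difference between the contrasts was tested directly over all 20 arrays, and 3757 genes (32.6%) were called, 1939 with a positive and 1818 with a negative difference (986 and 4521 on the deposited values, 234 and 1523 with arrays at the same median). The highest and lowest genes, and those named from lists, were chosen for their difference in CDS tumors. That difference is part of this test, so their values are a description. Among the 12 highest, 11 were called, all of them larger in CDS tumors, and Rgs5 was not (0.32, adjusted p = 0.601). Spx, Muc5ac, Crh and Kpna7 were at 3.36 or less on every ES tumor and every empty-vector culture. Among the 12 lowest, 5 were called, namely Ucp1, Cck, Stmn2, F3 and Pak3, and all 5 fell in both contrasts. The brown fat genes Cidea and Pparg fell by 9.41 and 8.12 in ES tumors against their culture, next to 9.89 and 8.14 in CDS tumors, and their differences of -0.47 and -0.02 were not called.

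By list, 11 of 15 endothelial markers were called higher in ES tumors against their culture, and 14 of 15 cholesterol genes and 9 of 17 ATF4 targets were called lower, next to 15, 13 and 14 in CDS tumors. These list counts for ES tumors and for the difference were not computed under the other scalings. Over all 11525 genes tested, 16.8% were called higher and 20% lower in ES tumors. For the difference 32.6% were called either way, 1939 genes with a positive value. Of CIC targets, 6 were higher and 6 lower in ES tumors, and the test of the difference was positive for 16 of 19. As said above, that list was chosen with earlier results of these data known. Dusp6 and Etv5 rose in ES tumors too, by 3.52 and 2.67. Their differences of the contrasts, 0.38 and 1.58, were not called (limma adjusted p = 0.176 and 0.0513). Etv1, Etv4 and Dusp4 rose there by 2.98, 2.00 and 2.57, with called differences of 4.16, 8.62 and 2.35. Of hypoxia genes 6 of 15 were higher in ES tumors. Car9, chosen for its difference in CDS tumors, was at 3.07 to 3.71 in ES tumors. These were no brighter than their cultures at 2.89 to 3.94, and the difference of the contrasts was 8.14. Pdgfra, chosen in the same way, fell by 5.91 in CDS tumors. It differed by -0.55 in ES tumors (limma adjusted p = 0.462), and the contrasts differed by -5.36. Tbx18 fell in CDS tumors and rose by 2.25 in ES tumors. Among interferon genes 16 of 18 were lower in ES tumors, and the test of the difference was positive for 13 of 18.

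Tumors also differed among themselves. The genes of largest SD over the 6 tumors were muscle genes, led by Tnnt3, a troponin, at 2.98, 2.95, 15.00, 14.48, 13.19 and 3.50 in CDS 1 to 6. CDS 3 and CDS 4, which share the muscle signal, were the most alike pair (correlation 0.9812). CDS 6 was the least like the others (0.8997 to 0.9297). It had the highest Actb 3′ excess and was the lowest tumor for Dcn, Lum, C1qa, Ccl8, Ndn and Ifit2. Among the 12 highest genes it was the highest tumor for Muc5ac, Kpna7, Per2, Clca2 and Fgfbp3 and the lowest for Etv4, Rgs5 and Notch4. CDS 2 carried the most fat and hemoglobin signal, with 56320 summed for fat cell markers and 39200 for erythrocyte markers.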

How the data were processed

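The measured values were microarray signals of total RNA (100 ng labelled) from 20 samples, deposited by the authors as 1 log2 value per probe set and array; MAS5 is the tool named in the submitters' processing notes, with no settings stated there. Of 45037 probe sets that are no controls, 28898 had 1 gene symbol, 551 several and 15588 none. From the deposited log2 values, linear signals plus an offset of 1.424 were taken to log2 and quantile normalized over the 20 arrays. Each gene took its probe set of highest mean (17097 genes), and 11525 above the array median on at least 4 of the 10 arrays were tested with limma 3.58.1 in R 4.3.3 (lmFit, eBayes with trend, Benjamini-Hochberg adjustment). A call needed an adjusted p under 0.05 and a difference of at least 1 log2 unit. The number of arrays limits the precision.

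The named genes were the 12 highest and 12 lowest called genes whose groups do not overlap and whose sign is the same on the deposited values, without predicted, clone or Riken names, 12 genes of the study's subject, and up to 4 called members of each of 40 lists with the largest differences, or 2 of highest mean where none is called. Other names, such as Egr1, Maff, Stard4, Vldlr, Hoxa7, Cdkn1c, Rsad2, Psmb10, Cd14, Cd68 and the members given only by a difference, were chosen after their values were seen. Members and lists were chosen with earlier results of these data known. The test was checked on simulated data for the comparison of CDS tumors with eMC CIC-DUX4 over 11525 genes, where it recovered 87% of changes of 2 log2 units and 72% of changes of 1.5, with 7 false calls. The simulation gave both groups the same SD for a gene, few changed genes and no scaling step. In the data the median SD was 0.50 in tumors and 0.12 in cultures. The simulated rates therefore check the code and do not give the rate of false calls here. Alternatives were other scalings, offsets, filters, probe set rules, fits, thresholds and left-out arrays.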

Additional observations from a re-analysis of the deposited data

Results flagged for a closer look

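In 294 groups of arrays tested for 1 value far from the rest (Dixon's criterion), 28 had one (9.52%; chance gives about 1 in 20). Of these, 10 were in CDS 6, 6 in CDS 2, 5 in CDS 1, 1 in CDS 3 and 6 in the cultures. CDS 6 was apart for Per2 (12.96), Cic (10.2), Col4a5 (13.12) and the dim Matn1 (2.91) on the high side. On the low side it was apart for Dcn (8.93), Lum (8.94), Ccl8 (11.06), C1qa (9.98), Aif1 (5.66) and the summed cultured fibroblast markers (50870). CDS 2 was high for the fat genes Thrsp (11.8), Pparg (5.05) and G0s2 (7.45), for Sox18 (11.12), and for the sums of adipocyte (56320) and erythrocyte markers (39200). CDS 1 was high for Grem1 (5.39), Mmp12 (4.35), Emcn (11.21) and Sox2 (5.5) and low for Ccnd1 (14.94). CDS 3 was high for the sum of lymphocyte markers (762.2).

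In the cultures the distances were small. eMC CIC-DUX4 8 stood apart for Egr1 (11.84), Grem1 (8.75) and Cdh1 (8.55), eMC CIC-DUX4 5 for Mmp9 (6.74) and Plagl1 (14.35), and eMC CIC-DUX4 6 for Nr4a1 (6.69).

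Of the 24 genes with the highest and lowest differences, 16 differed between the contrasts of CDS tumors and of ES tumors with their cultures, by limma over all arrays. The difference of the contrasts in log2 units was 11.55 for Spx, 11.25 for Muc5ac, 10.87 for Crh, 10.47 for Kpna7, 9.62 for Clca2, 9.23 for Fgfbp3, 8.81 for Camk4, 8.75 for Per2, 8.62 for Etv4, 6.61 for Notch4 and 1.96 for Aplnr. It was -3.33 for Stmn2, -2.69 for Cck, -2.39 for F3, -1.76 for Pak3 and -1.19 for Ucp1.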

How the results depend on the processing

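Scaling moved the counts most, and the cause was not tested. On the deposited values 642 genes were called higher and 1604 lower in CDS tumors, 3632 and 1338 in ES tumors, and 986 and 4521 for the difference of the contrasts. With arrays at the same median these were 432 and 658, 3887 and 854, and 234 higher for the difference. A filter at the 75th percentile, which tests fewer genes, gave 1348 and 1605. Leaving out 1 array at a time gave 1975 to 2110 higher and 2353 to 2548 lower in CDS tumors, 1728 to 2041 and 2123 to 2387 in ES tumors, and 1754 to 2049 and 1620 to 1955 for the difference. With the replicate block the counts in CDS tumors were 1621 and 2177. Arrays that share a number did not deviate together (r 0.00 and -0.01 for numbers 5 and 6). As only these numbers are shared and the cultures are nearly alike, this cannot exclude a shared origin. Of the 132 called genes compared between settings, 20 lost their call on the deposited values, 55 with arrays at the same median and 9 with the Actb 3′ excess as a covariate. Rsad2 changed sign on the deposited values (-0.55). Dim signals limit the rest: below the boundary a fold is only a bound.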
